A study of Mus musculus with 16 samples.

Results

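Hepatic stellate cells from mice with a ligated common bile duct were compared with stellate cells from normal mice, over all genes the array could measure. The comparison rests on 8 of the series' 16 arrays, 3 of bile duct ligation and 5 of quiescent cells, and covers the 7823 genes that passed the filter out of 18193 genes with a named probe set. No gene was picked by its values to define the comparison.

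Stellate cells lie between the hepatocytes and the sinusoidal endothelium, and in a healthy liver they store retinyl esters in lipid droplets and are called quiescent. After injury they lose the droplets, divide, and turn into contractile myofibroblasts that secrete fibrillar collagen and the enzymes that cross-link and remodel it. Ligation of the common bile duct blocks bile flow, and the injury starts around the portal tracts, where portal fibroblasts are a further source of myofibroblasts. Carbon tetrachloride (CCl4), in contrast, is a toxin that injures hepatocytes around the central veins.

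All cells came from male Balb/c mice of 8 to 10 weeks, were enriched by density centrifugation and were depleted of cells bearing F4/80, a macrophage surface protein, by magnetic sorting. Ligated mice were kept for 15 days before isolation, and their cells were plated for 24 h. Quiescent cells came from normal mice and were also plated for 24 h, so both groups had a day on plastic before RNA was taken. The labels describe no sham-operated group, and surgery and ligation therefore cannot be told apart here. For the direct comparisons 2 further groups were used, cells from mice given 4 injections of CCl4 (0.5 µl per g, plated for 24 h, 3 arrays) and normal cells cultured for 5 days with 10% serum (3 arrays). A last group, stellate cells cocultured with Kupffer cells for 5 days with 10% serum (2 arrays), was compared with none. All 16 arrays entered the choice of probe sets, the filter and the shared estimate of spread behind each SE and p-value. Whether the arrays of a group stem from different mice is not stated. The p-values below therefore reflect no more than array-to-array spread, part of which may be technical.

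Values are log2 expression per probe set, on which a difference of 1 is a 2-fold difference, and 6824 to 7037 genes reached log2 5 on each of the 8 arrays. The background step of the array software places unexpressed probe sets near log2 2, so a difference that starts there depends on the background estimate. Correlations across the tested genes were 0.968 to 0.974 among the ligation arrays, 0.929 to 0.978 among the quiescent arrays and 0.885 to 0.912 between the groups. Quiescent replicate 4 stood apart from its group, at 0.929 to 0.952 to the other 4 arrays. For some results that turn on that array, values with and without it are given. Of 20 stellate cell markers, 18 averaged at least log2 5 in quiescent cells and 16 after ligation. Des (desmin), Pdgfrb (the PDGF receptor beta) and Vim (vimentin) averaged 8.86 ± 0.56, 10.88 ± 0.27 and 12.81 ± 0.02 after ligation (SD, n = 3), and none of them was called different from quiescent cells. Other markers of the list were, with 4 of 18 tested members called higher and 4 lower (44.4%, against 16.9% of all tested genes). The median difference was -0.60, and 13 of the 18 differences were negative. Gfap, a marker named from the rodent literature, stood at 1.81 ± 0.18 in quiescent cells and 1.68 ± 0.21 after ligation and was not tested.

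Called increases after ligation included 5 of 6 tested fibrillar collagen genes, 13 of 27 smooth muscle contractile genes, 16 of 22 DNA replication genes and 16 of 16 mitosis genes. Only 2 of these mitosis genes averaged log2 5 in quiescent cells, and the others passed the filter through groups in which they were high. Without the filter 19 of 35 mitosis genes were called higher. Called decreases included 17 of 32 tested genes of the quiescent state. With 1 limma model and a Benjamini-Hochberg adjusted p under 0.05, 1319 of the 7823 genes were called, which is 16.9%, of which 628 were higher after ligation (8.03%) and 691 lower (8.83%). In these bulk samples fewer cells of a type and less RNA per cell cannot be told apart, for any gene below. The median difference of all tested genes was -0.05. More increases than decreases were large. A difference of at least 2-fold was reached by 367 called increases (4.69%) and 283 called decreases (3.62%), together 8.31% of the genes, and of at least log2 4 by 44 increases and 3 decreases. For 237 of the called increases the quiescent mean lay under log2 5. The arrays of the groups did not overlap in 1765 genes (22.6%), and 1152 genes (14.7%) were both called and free of overlap. The number of decreases leaned on single arrays, with 370 called without ligation replicate 1 and 793 without quiescent replicate 4, and the number of increases was 414 without ligation replicate 1.

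**Figure D1:**
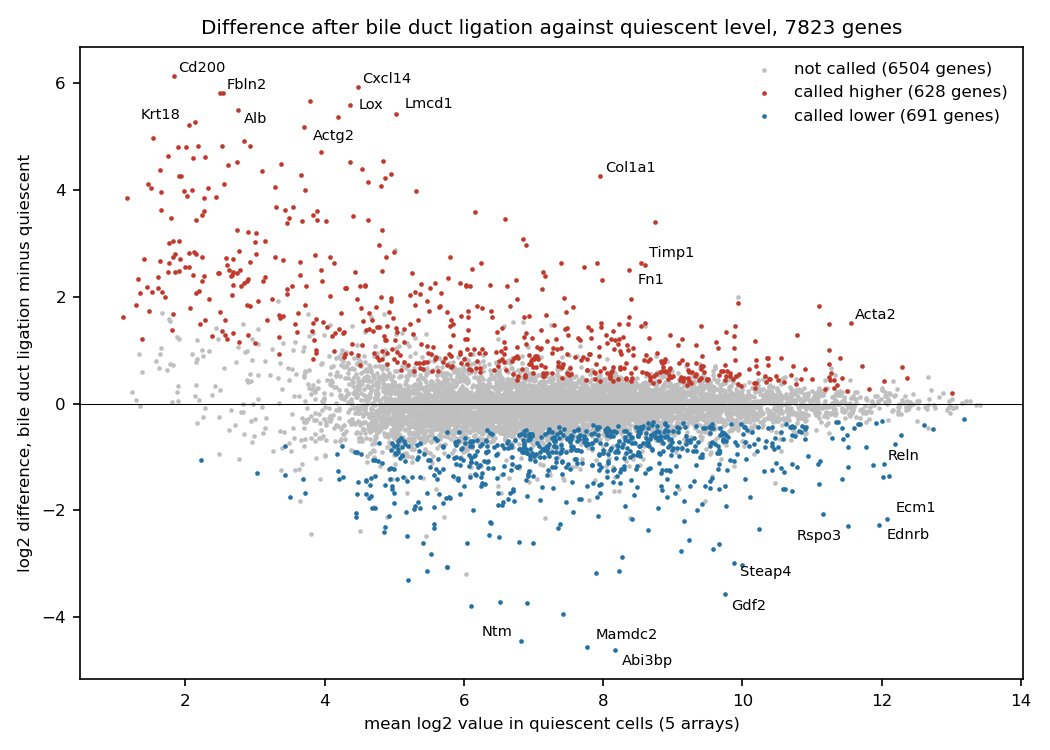
Log2 difference between ligation and quiescent cells (vertical axis) against the mean log2 value in quiescent cells (horizontal axis, 5 arrays) for the 7823 tested genes. Coloured points are the 628 genes called higher and the 691 called lower, grey points were not called, and the named genes include Cd200 at 6.14 and Abi3bp at -4.62.

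The smallest adjusted p belonged to Cd200, which encodes a surface glycoprotein that restrains myeloid cells. It read 7.72, 8.65 and 7.57 on the 3 ligation arrays and 1.21, 1.88, 2.16, 2.15 and 1.78 on the 5 quiescent arrays. The quiescent readings are all at background and the groups lay far apart, with a difference of 6.14 ± 0.26 (log2 difference ± SE, adjusted p = 1.55e-09). Cxcl14, a chemokine gene, read 10.34, 10.69 and 10.18 after ligation and 5.60, 5.19, 1.60, 6.28 and 3.70 in quiescent cells, where the arrays were scattered over more than 4 log2 units, and it rose by 5.93 ± 0.87 (adjusted p = 0.000241). Lmcd1, a LIM-domain cofactor of smooth muscle, was as scattered in quiescent cells (1.87, 6.08, 3.94, 8.04 and 5.20) and tight after ligation (10.09, 10.45 and 10.79), a rise of 5.42 ± 0.91. Cav1, the main protein of caveolae, rose from background (2.70, 2.19, 1.55, 2.34 and 1.88) to 7.0, 8.33 and 6.87, by 5.27 ± 0.38. Gpr176, an orphan receptor, rose by 5.37 ± 0.34, Cpe, a carboxypeptidase that trims peptide hormones, by 4.82 ± 0.30, and the small heat shock protein gene Hspb7 by 4.63 ± 0.25 (adjusted p = 1.96e-08). In each of these genes the lowest ligation array was above the highest quiescent array.

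**Figure D2:**
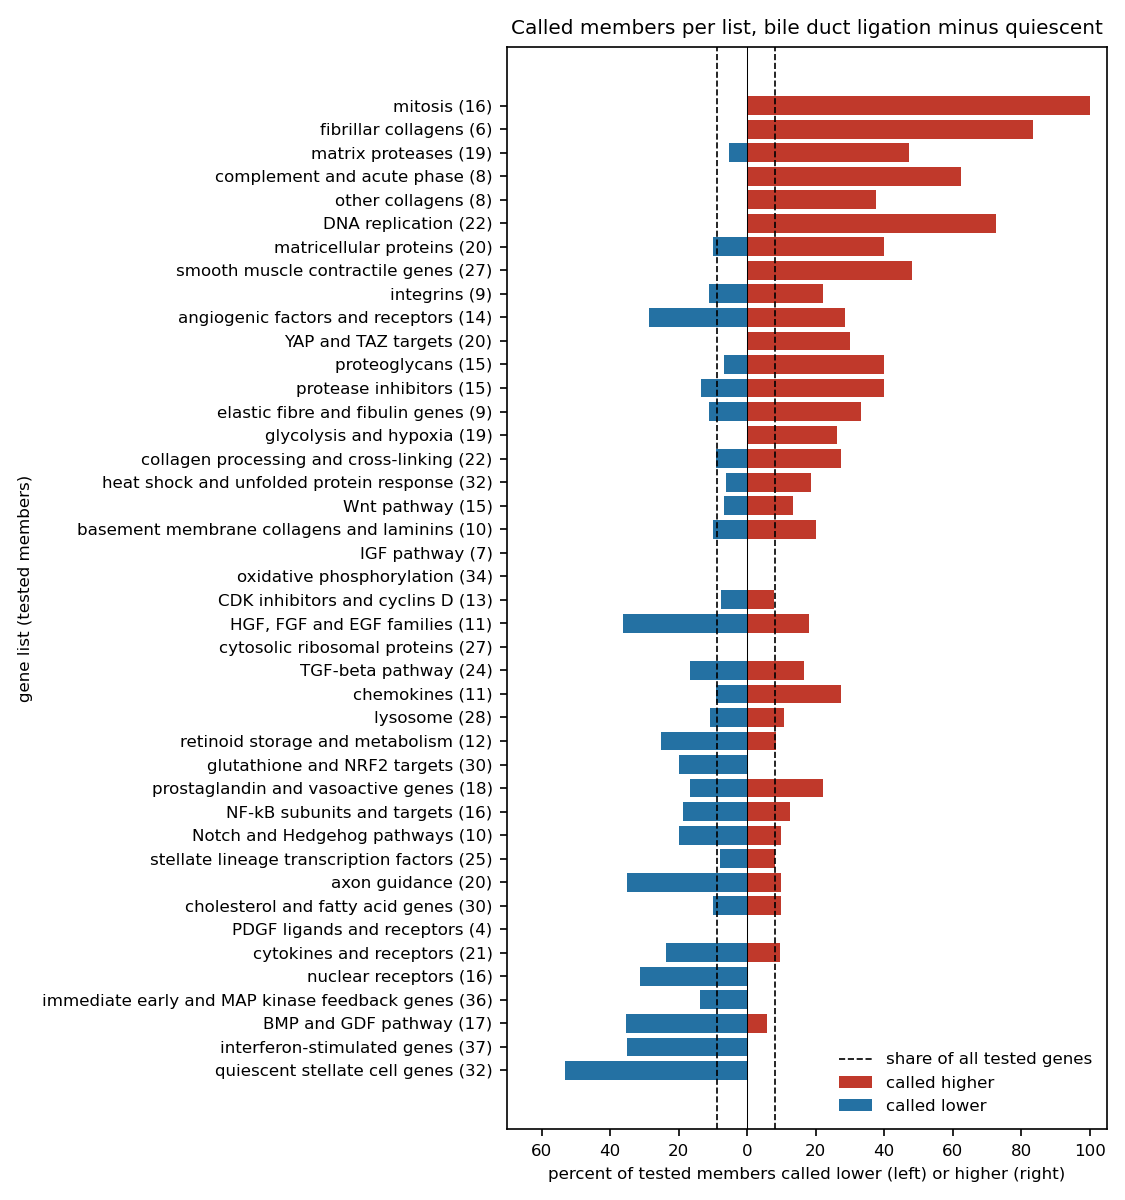
Percent of the tested members of each gene list (rows, number tested in brackets) called higher (bars to the right) and lower (bars to the left) after ligation, in the order of the list medians, with dashed lines at the share of all tested genes. The bars are a description, since genes at background in quiescent cells passed the filter only where another group was high.

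Most of the tested fibrillar collagen genes were called higher after ligation. Of the 11 fibrillar collagen genes on the array 6 passed the filter, and 5 of these were called higher, against 8.03% of all tested genes, with a median difference of 1.64 against -0.05 over all genes. The count was 3 without ligation replicate 2. Here and in every list below, a gene that is at background in quiescent cells could pass the filter only because another group was high, so the counts describe the genes that passed and are not evidence for a list. Col1a1, the first chain of type I collagen, read 11.88, 12.15 and 12.61 after ligation and 9.0, 7.92, 8.17, 6.71 and 8.01 in quiescent cells, and Col1a2, the second chain, read 11.94, 12.28 and 12.21 and 8.92, 8.67, 8.95, 8.07 and 9.12. Neither gene's groups overlapped, with gaps of almost 3 log2 units between the nearest arrays, and quiescent replicate 4 had the lowest value of both genes. The differences were 4.26 ± 0.38 for Col1a1 and 3.40 ± 0.25 for Col1a2 (limma adjusted p = 2.55e-06 and 3.81e-07). These are values of the brightest probe sets, here and in the comparisons below. A second probe set past the filter gave a smaller rise of 1.82 for Col1a1 and one of 3.78 for Col1a2. Col3a1, the type III chain, was already at 11.10 ± 1.10 in quiescent cells (SD, n = 5) and rose by 1.84 ± 0.49 (adjusted p = 0.0171). That call was lost without ligation replicate 2 (adjusted p = 0.0597) or 3 (0.0637). The type V chain Col5a2, which nucleates fibrils, rose by 1.01 ± 0.12 with all 3 ligation arrays between 12.21 and 12.33.

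The enzymes that cross-link the fibrils changed unequally. Lox, lysyl oxidase, read 10.12, 9.96 and 9.78 after ligation and 4.40, 4.98, 3.87, 5.05 and 3.53 in quiescent cells. The groups were separated by more than 4 log2 units, and the difference was 5.59 ± 0.30 (adjusted p = 1.96e-08). Loxl1, a lysyl oxidase known for its part in elastic fibres, read 7.12, 7.57 and 7.65 against 3.54, 4.32, 4.0, 4.10 and 4.17 and rose by 3.42 ± 0.24. Its relative Loxl4 fell by 0.91 ± 0.24, a call that was lost without ligation replicate 2 (-0.81, adjusted p = 0.072). Bmp1, the protease that removes the collagen C-propeptide, rose by 1.46 ± 0.31, and Pcolce2, which enhances that cleavage, by 2.76 ± 0.51. Most of the intracellular processing genes were not called. The collagen chaperone gene Serpinh1 stood at 11.33 ± 0.19 in quiescent cells and 11.86 ± 0.22 after ligation (0.53 ± 0.20, adjusted p = 0.0797). In all, 22 of 25 processing genes passed the filter, 6 called higher, 2 lower, median 0.16 (36.4% called, against 16.9% of all tested genes).

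Basement membrane genes did not follow the fibrillar collagens. Of 20 on the array 10 passed the filter, with 2 called higher, 1 lower and a median of 0.04 (30% called, against 16.9% of all tested genes). The abundant chains Col4a1 (12.71 ± 0.11 in quiescent cells and 12.95 ± 0.03 after ligation) and Lamb1 (9.95 ± 0.15 and 9.79 ± 0.13) were not called. Col4a5, a chain of another type IV trimer, went from 1.42, 1.17, 1.32, 0.84 and 1.07 to 5.20, 5.36 and 4.50, from background and without overlap, a rise of 3.86 ± 0.26. Nid2, which links laminin to collagen IV, rose by 2.27 ± 0.45, and Lama1, a laminin chain of embryonic basement membranes, fell by 2.12 ± 0.37. Among the other collagens Col15a1 went from background (1.61, 1.45, 1.36, 1.46 and 1.60) to 4.46, 5.73 and 6.42, a rise of 4.04 ± 0.38, and Col14a1, a collagen that coats fibrils, was not called (-0.16 ± 0.34).

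Other matrix genes changed in both directions. Fbln2, an elastic fibre protein also used as a portal fibroblast marker, read 8.07, 8.45 and 8.53 after ligation and 3.20, 2.27, 2.11, 3.07 and 2.04 in quiescent cells, without overlap, and rose by 5.82 ± 0.41. Efemp1, another fibulin, went the other way, from 9.17, 9.47, 9.40, 8.03 and 9.51 to 6.65, 5.36 and 7.06, and fell by 2.76 ± 0.42. Fibronectin (Fn1) read 10.93, 10.88 and 10.85 after ligation and 8.57, 8.57, 8.42, 8.20 and 8.10 before, with almost no spread among the ligation arrays, and rose by 2.51 ± 0.28 (adjusted p = 2.02e-05). The proteoglycan genes Sdc1 (syndecan 1, a cell surface coreceptor) and Vcan (versican, a hyaluronan-binding proteoglycan) rose by 4.72 ± 0.48 and 3.47 ± 0.39. The small proteoglycan genes Dcn (decorin) and Lum (lumican) were at 12.50 ± 0.26 and 9.44 ± 0.81 in quiescent cells and were not called (-0.32 ± 0.13 and 0.44 ± 0.45). With the mean of its probe sets, Dcn was called lower (-1.38, adjusted p = 0.0185). Of 28 matricellular genes 20 were tested, 8 called higher and 2 lower (4 without quiescent replicate 4), median 0.72. That is 50% called, against 16.9% of all tested genes. Tnc, tenascin C, rose by 1.28 ± 0.30 with its brightest probe set, and its call was lost with the mean of its probe sets (1.20, adjusted p = 0.25). Ccn4, a secreted Wnt target, rose by 2.21 ± 0.36, while Ccn2, the connective tissue growth factor gene, was already at 12.67 ± 0.67 in quiescent cells and was not called (0.50 ± 0.28).

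The largest decrease among the called genes was in Abi3bp, a gene of the extracellular matrix, which read 8.18, 7.94, 8.31, 7.91 and 8.53 in quiescent cells and 3.34, 3.25 and 4.07 after ligation. The groups were more than 3 log2 units apart, and the gene fell by 4.62 ± 0.67 (adjusted p = 0.000221). Mamdc2, a secreted proteoglycan gene, fell by 4.56 ± 0.50. Ecm1, a secreted matrix protein that holds latent TGF-beta inactive, read 12.29, 12.16, 12.04, 11.85 and 12.04 and 9.89, 9.58 and 10.29, again without overlap, and fell by 2.15 ± 0.23 (adjusted p = 1.58e-05).

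The other large decreases were in genes of varied function. Mapt, the microtubule protein tau, read 7.55, 6.44, 6.76, 6.55 and 7.19 in quiescent cells and 3.01, 2.56 and 3.94 after ligation. The groups were far apart, and the gene fell by 3.73 ± 0.35 (adjusted p = 4.17e-06). Sucnr1, a receptor for succinate, read 7.16, 5.34, 8.15, 3.92 and 8.02 and 2.55, 2.26 and 3.59, also without overlap, and fell by 3.72 ± 0.82. Lrrn3, a neuronal membrane protein, fell by 3.94 ± 0.55, and the adhesion gene Cadm1 fell by 3.13 ± 0.34. Steap4, a metalloreductase, read 9.98, 9.96, 9.88, 9.42 and 10.14 in quiescent cells and 5.78, 7.26 and 7.63 after ligation and fell by 2.99 ± 0.43. The GTPase gene Gem fell by 3.17 ± 0.43. Among the large increases not yet described was Ch25h, which makes the oxysterol with a hydroxyl group on the cholesterol side chain, with 7.94, 7.97 and 7.35 after ligation, 1.79, 3.21, 2.08, 6.19 and 1.35 in quiescent cells and a rise of 4.83 ± 0.76.

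More proteases and protease inhibitors rose than fell. Of 33 matrix proteases 19 were tested, with 9 called higher, 1 lower and a median of 1.30. Of 21 inhibitors 15 were tested, with 6 higher, 2 lower and a median of 0.43. The called shares were 52.6% and 53.3%, against 16.9% of all tested genes. Mmp10, stromelysin 2, read 9.08, 10.08 and 9.20 after ligation and 3.56, 3.47, 2.11, 6.57 and 3.22 in quiescent cells, a rise of 5.67 ± 0.82. Mmp13, the main rodent interstitial collagenase, read 9.07, 9.93 and 8.23 and 3.61, 4.18, 4.38, 8.16 and 3.97. In both genes quiescent replicate 4 was the highest quiescent array, and for Mmp13 it came within 0.1 log2 units of the lowest ligation array. The difference of Mmp13 was 4.22 ± 0.95 with it and 5.04 without it. Mmp12, macrophage elastase, rose by 4.63 ± 0.56, and the proteases Adam19 and Adamts12 rose by 1.41 ± 0.25 and 1.41 ± 0.27. Mmp2, the gelatinase of stellate cells, and its activator Mmp14 were not called (-0.35 ± 0.30 and 0.28 ± 0.13). Timp1, the inhibitor most often followed in fibrosis, read 11.05, 11.24 and 11.23 after ligation and 8.28, 8.53, 7.48, 9.62 and 8.78 before, without overlap, and rose by 2.63 ± 0.63 (adjusted p = 0.00907). Timp3, an inhibitor bound to the matrix, was not called (0.26 ± 0.24). Reck, a membrane-anchored inhibitor of matrix proteases, fell by 1.75 ± 0.25 (adjusted p = 0.000225). The serine protease inhibitor genes Serpinf1 and Tfpi2 rose by 4.11 ± 0.31 and 4.16 ± 0.46, Serpinf1 from background.

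The contractile genes were in part well expressed in quiescent cells, and no tested member was called lower after ligation. Of 34 smooth muscle contractile genes 27 were tested, and 13 were called higher, against 8.03% of all tested genes. None was called lower (15 higher and 0 lower at an unadjusted limma p under 0.05), and the median was 0.67. Of the 22 with a quiescent mean of at least log2 5, 9 were called higher. Acta2, smooth muscle actin and the defining gene of a myofibroblast, read 13.10, 12.98 and 13.13 after ligation and 11.20, 11.56, 12.0, 11.20 and 11.82 in quiescent cells. The lowest ligation array exceeded the highest quiescent array by about 1 log2 unit, and the difference was 1.51 ± 0.19 (adjusted p = 5.61e-05). Differences were larger in genes that were low in quiescent cells. Actg2, the enteric smooth muscle actin, rose by 5.17 ± 0.39, the calponin Cnn1 by 4.97 ± 0.49 from background, the leiomodin Lmod1 by 3.39 ± 0.37 and the smooth muscle myosin heavy chain Myh11 by 2.20 ± 0.49. Myl9, the regulatory myosin light chain, read 11.26, 10.80 and 11.38 after ligation and 9.46, 9.75, 10.70, 9.23 and 10.25 in quiescent cells, where the nearest arrays almost touch, a rise of 1.27 ± 0.27, and the tropomyosins Tpm2 and Tpm1 rose by 1.46 ± 0.25 and 0.71 ± 0.15. Desmin was not called (0.32 ± 0.28).

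**Figure D3:**
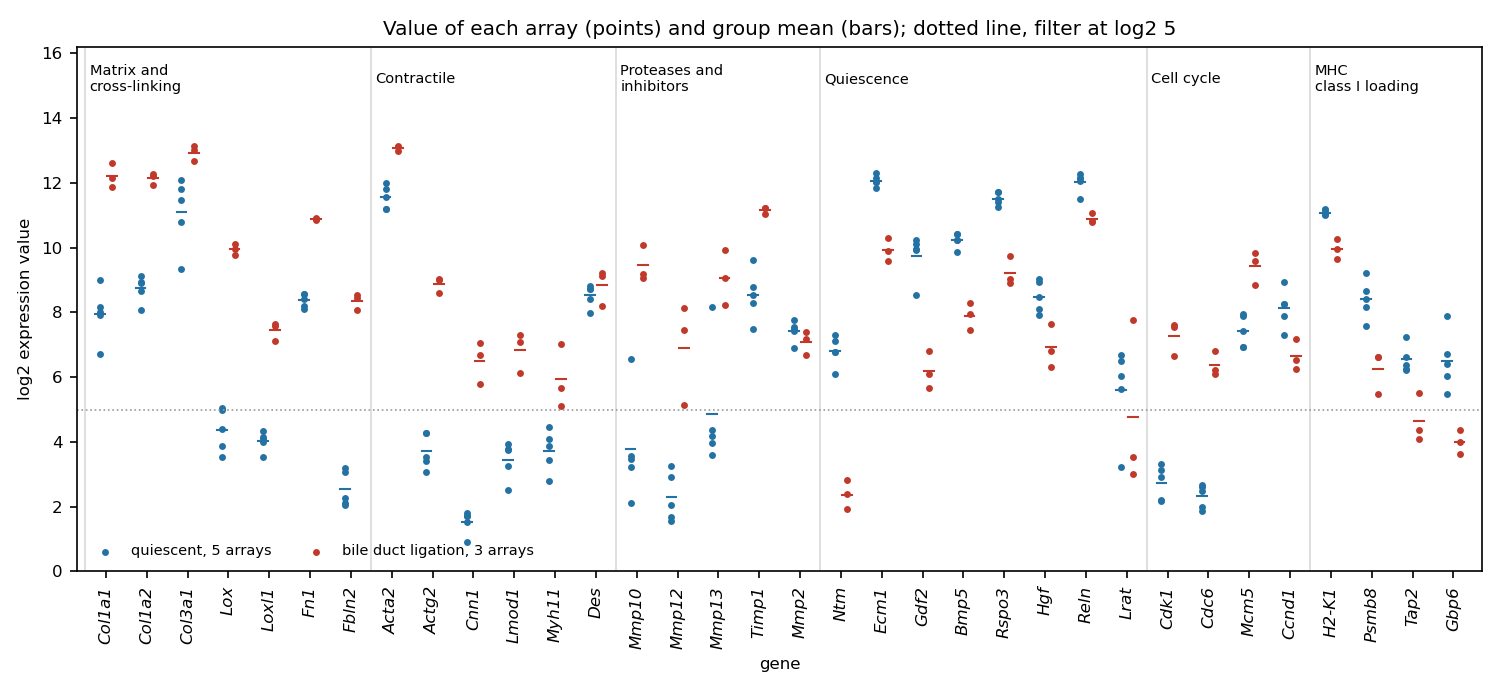
Log2 expression on each of the 5 quiescent and 3 ligation arrays for genes grouped by role, each point 1 array and each bar a group mean, with a dotted line at the filter of log2 5. In Col1a1, Lox, Acta2, Gdf2 and Cdk1 no ligation array lies within the quiescent range.

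Smooth muscle genes are classically bound by serum response factor at the CArG box, 2 cytosines and 2 guanines around 6 A or T letters. RefSeq promoter windows of 250 bases before the start (GRCm38.p6) were found for 9 of the 13 called genes. An exact CArG box on either strand was present in 2 of them, Cnn2 and Myl9, against 1.62% of 27025 genes, and a CArG-like match with at most 1 changed letter in 3, Acta2, Cnn2 and Myl9, against 9.78%. These 3 windows are shown 5′ to 3′ on the gene's strand because they hold the letters searched, with each CArG-like match in capitals. A match is a description of the sequence and not a binding site, and the CArG-like search was added after values were seen.
Acta2, chr19:34255374-34255623, minus strand: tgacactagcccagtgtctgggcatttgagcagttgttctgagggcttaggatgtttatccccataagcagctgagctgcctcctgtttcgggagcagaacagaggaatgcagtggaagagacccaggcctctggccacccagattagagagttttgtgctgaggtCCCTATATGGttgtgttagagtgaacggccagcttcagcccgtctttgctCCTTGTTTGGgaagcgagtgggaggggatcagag
Cnn2, chr10:79988350-79988599, plus strand: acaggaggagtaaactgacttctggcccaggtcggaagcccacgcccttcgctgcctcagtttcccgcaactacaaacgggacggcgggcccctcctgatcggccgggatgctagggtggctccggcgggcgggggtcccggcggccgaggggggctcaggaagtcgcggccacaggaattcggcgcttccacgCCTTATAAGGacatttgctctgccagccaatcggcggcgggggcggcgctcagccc
Myl9, chr2:156775214-156775463, plus strand: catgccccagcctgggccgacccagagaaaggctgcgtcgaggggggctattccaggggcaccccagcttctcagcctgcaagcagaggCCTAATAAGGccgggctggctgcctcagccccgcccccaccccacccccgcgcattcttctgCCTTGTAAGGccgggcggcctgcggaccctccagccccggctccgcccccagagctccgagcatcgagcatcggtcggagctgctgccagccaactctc
In the Acta2 window the matches begin 84 and 34 bases before the start, in Myl9 161 and 99 bases, and in Cnn2 56 bases. Cnn2, a calponin of non-muscle cells, rose by 0.57 ± 0.18 (adjusted p = 0.0415), a call that was lost without ligation replicate 1 (adjusted p = 0.146) or 3 (0.147) or without any of quiescent replicates 1, 2, 3 and 5 (0.0525 to 0.0868). The motif GGAATG of the TEAD factors, partners of the mechanosensitive YAP and TAZ proteins, was in 4 of the 9 windows against 14.4% of genes, and in 3 of 4 windows of called YAP and TAZ targets. Among 24 genes of that pathway 20 were tested and 6 called higher (30%, against 8.03% of all tested genes), median 0.47. Only 2 were called without ligation replicate 1 and 3 without ligation replicate 3 or quiescent replicate 5. Crim1, a transmembrane regulator of growth factors, rose by 1.35 ± 0.23 and Tgfb2 by 2.52 ± 0.22, but the classical targets Ccn1, Ccn2 and Ankrd1, all averaging above log2 11 in quiescent cells, were not called (0.66 ± 0.42, 0.50 ± 0.28 and 0.43 ± 0.48).

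Many genes of the quiescent state were called lower after ligation. Of 36 such genes 32 were tested, 17 were called lower, against 8.83% of all genes, and none higher (22 and 0 at an unadjusted p under 0.05), with a median of -1.34. With single arrays left out 12 to 21 were called lower, and without quiescent replicate 4 the count was 21. The list was assembled with earlier results of these data known and is not independent evidence of its direction. Gdf2, which encodes BMP9, a ligand made by stellate cells that acts on endothelium, read 9.94, 10.11, 9.95, 8.53 and 10.22 in quiescent cells and 5.65, 6.11 and 6.81 after ligation. Quiescent replicate 4 was the low value of its group and still lay above every ligation array, and the gene fell by 3.56 ± 0.40 (adjusted p = 2.41e-05). Bmp5 read 10.43, 10.24, 10.24, 9.86 and 10.43 and 7.94, 7.46 and 8.30, Rspo3, a Wnt amplifier that patterns hepatocytes, 11.71, 11.40, 11.26, 11.50 and 11.72 and 8.92, 9.04 and 9.73, and Fcna, a ficolin, 10.06, 9.56, 9.49, 9.29 and 9.50 and 6.64, 6.93 and 6.98. In none of the 3 genes did the groups overlap. Bmp5 fell by 2.34 ± 0.27, Rspo3 fell by 2.29 ± 0.31 and Fcna fell by 2.73 ± 0.28. Ntm, a neural adhesion gene, went from 6.77, 6.09, 6.79, 7.32 and 7.11 to background (1.92, 2.39 and 2.81) and fell by 4.44 ± 0.36. The peptide hormone receptors Pth1r and Vipr1 and the potassium channel subunit Abcc9 were called lower (-1.24 ± 0.26, -2.62 ± 0.42 and -1.63 ± 0.39). Hgf, the hepatocyte mitogen, fell by 1.57 ± 0.37, a call that was lost without ligation replicate 3 (adjusted p = 0.053), and Reln, reelin, fell by 1.13 ± 0.31, lost without ligation replicate 1 (0.0805) or 2 (0.0766).

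Some defining genes of the lineage did not pass. Lrat, which esterifies retinol for storage, read 5.63, 6.70, 6.02, 3.22 and 6.50 in quiescent cells and 3.02, 3.54 and 7.77 after ligation. The ligation arrays were more than 4 log2 units apart, with an SD of 2.61, and the difference of -0.84 ± 1.04 was not called (adjusted p = 0.634). It was 0.043 without ligation replicate 1. Cygb, the stellate cell globin, differed by -1.48 ± 0.53 (adjusted p = 0.0684) and was called with array weights (-1.76, adjusted p = 0.0117), with the replicate block (-1.77, 0.0478) and without quiescent replicate 4 (-1.79, 0.0211) or ligation replicate 3 (-1.91, 0.045). Pdgfra, the PDGF receptor alpha, differed by -0.80 ± 0.29 and was not called in the model of all groups. It was called with the mean of its probe sets (-1.03, adjusted p = 0.0229), with array weights (0.0111), with the replicate block (0.0398), with only the compared groups (0.0440) and without quiescent replicate 4 (-0.94, 0.0314). Of 28 retinoid genes 12 were tested, 1 called higher and 3 lower (1 without ligation replicate 2), median -0.14. Together 33.3% were called, against 16.9% of all tested genes. Dhrs3, which reduces retinal to retinol, rose by 2.48 ± 0.52, and Rxra, the retinoid X receptor alpha, fell by 0.94 ± 0.20. The mesenchymal factor gene Prrx1 read 7.51, 8.72 and 7.53 after ligation and 4.26, 3.83, 4.44, 4.66 and 4.84 in quiescent cells, without overlap, and rose by 3.51 ± 0.30 (adjusted p = 1.52e-06), and Ets1 fell by 0.84 ± 0.10. Hand2 and Lhx2, factors of stellate identity, were not called (-0.52 ± 0.46 and -0.67 ± 0.28), Lhx2 being called with array weights (adjusted p = 0.0102), with the replicate block (0.0166) and without quiescent replicate 4 (-0.90, 0.0114). Among 32 nuclear receptor genes 16 were tested, none called higher and 5 lower (1 and 6 at an unadjusted p under 0.05). The 5 are 31.25% of those tested, against 8.83% of all tested genes. They include the glucocorticoid receptor Nr3c1 (-0.99 ± 0.14) and the estrogen receptor Esr1 (-2.21 ± 0.50).

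Genes of several BMP ligands were lower after ligation. Of 28 BMP and GDF pathway genes 17 were tested, 6 called lower and 1 higher, median -0.77. The called share was 41.2%, against 16.9% of all tested genes, and 10 were called lower without quiescent replicate 4. Besides Gdf2 and Bmp5, Bmp2 read 9.34, 9.22, 9.02, 9.21 and 8.98 in quiescent cells and 6.93, 7.14 and 6.78 after ligation and fell by 2.21 ± 0.30. Gdf10 fell by 3.02 ± 0.82, and this call was lost without ligation replicate 1 (-2.24, adjusted p = 0.132). Bambi, a decoy receptor that restrains TGF-beta signalling, fell by 1.42 ± 0.35 (adjusted p = 0.0109, and 0.0582 without ligation replicate 3). The BMP target Id3 was not called (-0.89 ± 0.30, adjusted p = 0.0526) and was called with array weights (-1.10, adjusted p = 0.00256), with the replicate block (-1.06, 0.00773) and without quiescent replicate 4 (-1.15, 0.00189). Grem1, a secreted BMP antagonist, was the 1 gene called higher, by 3.98 ± 0.90, with ligation arrays as far apart as 5.50, 8.56 and 3.82.

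Of the TGF-beta ligands, Tgfb2 read 8.88, 8.67 and 8.35 after ligation and 5.82, 6.52, 5.94, 5.84 and 6.44 in quiescent cells, without overlap, and rose by 2.52 ± 0.22 (adjusted p = 1.89e-06). Tgfb3 rose by 1.97 ± 0.45 (adjusted p = 0.00702, and 0.0503 without ligation replicate 1). Tgfb1, the ligand most studied in fibrosis, was not called (-0.16 ± 0.32). The coreceptor Tgfbr3 fell by 1.60 ± 0.28 and the activin receptor Acvr2a fell by 1.28 ± 0.23. Smad7, the feedback inhibitor that TGF-beta induces, fell by 0.86 ± 0.18. Over the 24 tested genes of the pathway, of 29 on the array, 4 were called higher and 4 lower (33.3%, against 16.9% of all tested genes). The higher calls were 2 without ligation replicate 1 or 2 and 6 without quiescent replicate 4. The median of -0.07 was close to that of all genes. None of the 4 tested PDGF genes and none of the 7 tested IGF genes was called by limma, with 1 gene of each list at an unadjusted p under 0.05.

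Among growth factor receptors of other families, Fgfr2 read 9.98, 9.83, 10.08, 8.95 and 9.99 in quiescent cells and 8.03, 7.68 and 7.83 after ligation and fell by 1.92 ± 0.33. Quiescent replicate 4 was the low array of its group and was still above each ligation array. Met, the receptor of the hepatocyte growth factor, rose from background by 2.10 ± 0.43. Itgb5, an integrin beta chain that can release active TGF-beta from its latent complex, read 9.58, 10.50 and 10.26 after ligation and 8.97, 8.80, 8.36, 7.90 and 8.97 in quiescent cells and rose by 1.51 ± 0.27. Ltbp2, which is related to the proteins that hold latent TGF-beta in the matrix, rose from background by 2.46 ± 0.50, with 1 ligation array of 3 well above the others (3.46, 5.67 and 3.52). Spred1, an inhibitor of the MAP kinase cascade, fell by 0.80 ± 0.15.

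Vasoactive genes moved in both directions. Edn1, endothelin 1, a potent constrictor, read 5.12, 4.74 and 4.94 after ligation and 2.19, 2.22, 2.77, 2.53 and 2.67 in quiescent cells and rose by 2.45 ± 0.27 (adjusted p = 1.71e-05), while its B-type receptor Ednrb, read 11.99, 12.14, 11.76, 11.67 and 12.22 in quiescent cells and 8.69, 9.94 and 10.43 after ligation and fell by 2.27 ± 0.39. Neither gene's groups overlapped. The prostaglandin receptor Ptger4 rose by 3.42 ± 0.38. The natriuretic peptide receptor Npr2, a guanylyl cyclase, fell by 2.24 ± 0.25 and the clearance receptor Npr3 rose by 1.16 ± 0.27. Adra1b, the alpha-1B adrenoceptor, went from 5.97, 5.77, 5.67, 5.84 and 5.54 to 2.83, 2.47 and 2.80 and fell by 3.06 ± 0.35. Placental growth factor (Pgf) rose by 2.82 ± 0.48 from background, and Ramp2 and Calcrl, which together form the adrenomedullin receptor, were called lower (-1.25 ± 0.29 and -1.21 ± 0.27).

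Some guidance molecules were called lower. Of 40 axon guidance genes 20 were tested, 7 called lower, against 8.83% of all genes, 2 called higher, against 8.03%, and 11 not called, with a median of -0.35. Ntn1, netrin 1, read 10.72, 10.65, 10.55, 10.43 and 10.58 in quiescent cells and 9.06, 8.53 and 9.38 after ligation and fell by 1.59 ± 0.21 (adjusted p = 9.47e-05). The semaphorin Sema6d fell by 1.41 ± 0.22 and the plexin Plxnc1 fell by 1.84 ± 0.35. Of the developmental pathways, Wnt genes (15 of 42 tested) had 2 called higher and 1 lower and Notch and Hedgehog genes (10 of 25 tested) 1 higher and 2 lower. The called shares were 20% and 30%, the first near the 16.9% of all tested genes. Hhip, the decoy receptor of Hedgehog ligands, went from 5.05, 6.08, 4.71, 4.25 and 5.90 to background (1.79, 1.39 and 2.50) and fell by 3.30 ± 0.42. The Wnt receptor gene Ror1 rose by 2.65 ± 0.37, and Dkk3 by 2.44 ± 0.49.

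Most tested genes of DNA replication and each tested gene of mitosis were called higher after ligation. Of 30 DNA replication genes 22 were tested, 16 called higher and none lower (19 and 0 at an unadjusted p under 0.05, and 10 called without ligation replicate 1), median 0.91. Of 35 mitosis genes 16 were tested and 16 called higher, median 2.52, against 8.03% called higher of all tested genes. Only 2 of the mitosis genes averaged log2 5 in quiescent cells, so the others passed the filter through the groups in which they were high, and 19 mitosis genes did not pass. Of the 17 replication genes with a quiescent mean of at least log2 5, 11 were called higher. Mcm5, a subunit of the replicative helicase, read 9.83, 8.85 and 9.58 after ligation and 7.44, 6.94, 7.96, 6.93 and 7.89 in quiescent cells, without overlap, and rose by 1.99 ± 0.27 (adjusted p = 0.000114). Mcm6 rose by 2.23 ± 0.31, and the ribonucleotide reductase subunit Rrm2 by 4.07 ± 0.38. Cdk1, the mitotic kinase, read 7.56, 6.65 and 7.61 against 3.30, 2.16, 3.12, 2.19 and 2.91, from background, and rose by 4.53 ± 0.32 (adjusted p = 2.47e-07). Top2a, which untangles sister chromosomes, rose by 4.26 ± 0.38, the ubiquitin ligase partner Ube2c by 3.63 ± 0.45 and the proliferation marker Mki67 by 3.62 ± 0.44. Ligation replicate 2 had the lowest value of its group in all 7 of these genes. Ccnd1, cyclin D1 of the G1 phase, went the other way and fell by 1.48 ± 0.30, and Cdkn1a, which encodes the inhibitor p21, was not called (-0.49 ± 0.44).

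Promoters of mitotic genes often carry the cell cycle homology region, TTTGAA, near CCAAT boxes. Windows were found for 14 of the 16 called mitosis genes. TTTGAA was present on either strand in 7 of them against 18.3% of all genes, and CCAAT in 9 against 37.5%. Of 13 called replication genes with a window, 2 held TTTGAA and 9 held CCAAT. The windows of Cdk1 and Ube2c are printed because they hold both motifs, which are in capitals (TTCAAA and ATTGG where they lie on the other strand), and both motifs were chosen after values were seen.
Cdk1, chr10:69352913-69353162, minus strand: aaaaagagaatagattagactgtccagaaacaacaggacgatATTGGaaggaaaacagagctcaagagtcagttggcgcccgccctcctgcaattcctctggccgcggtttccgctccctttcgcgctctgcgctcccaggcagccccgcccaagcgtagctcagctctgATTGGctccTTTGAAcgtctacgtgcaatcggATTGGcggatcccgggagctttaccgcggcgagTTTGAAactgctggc
Ube2c, chr2:164769679-164769928, plus strand: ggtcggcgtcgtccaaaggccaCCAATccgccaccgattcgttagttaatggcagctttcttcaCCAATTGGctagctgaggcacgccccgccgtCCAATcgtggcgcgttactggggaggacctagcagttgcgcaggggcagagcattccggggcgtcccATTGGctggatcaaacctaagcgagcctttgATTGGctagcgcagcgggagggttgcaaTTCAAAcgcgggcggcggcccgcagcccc

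Genes of inflammatory mediators were called in both directions. The called share was 36.4% of tested chemokine genes, 33.3% of cytokine and receptor genes and 62.5% of complement and acute phase genes, against 16.9% of all genes. Of 26 chemokine genes 11 were tested, 3 called higher and 1 lower, median -0.08. Ccl6, a myeloid chemokine, read 7.14, 8.50 and 6.42 after ligation and 2.95, 1.81, 3.31, 1.95 and 2.59 in quiescent cells and rose by 4.83 ± 0.59, beside the rise of Cxcl14. Ccl2, the main monocyte attractant of stellate cells, stood at 7.93 ± 0.82 and 7.91 ± 0.41 and was not called (-0.02 ± 0.44). Cxcl12, a chemokine that retains leukocytes, fell by 0.76 ± 0.18, lost without ligation replicate 2 (-0.50, adjusted p = 0.0646). Of 21 tested cytokine and receptor genes 5 were lower and 2 higher, median -0.56, with 1 lower without ligation replicate 1 and 3 without ligation replicate 2 or quiescent replicate 5. The interleukin receptor chain Il13ra1 fell by 1.45 ± 0.25 and the tumour necrosis factor receptor Tnfrsf1a fell by 0.94 ± 0.23, the latter not called without ligation replicate 1 (-0.69, adjusted p = 0.0796). The acute phase genes Saa3 and Lcn2 rose by 4.92 ± 0.64 and 4.55 ± 0.53, and the complement inhibitor Serping1 by 1.17 ± 0.23. The list of complement and acute phase held 20 genes, of which 8 were tested and 5 called higher (3 without ligation replicate 1 or 2), median 1.16.

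Part of the interferon-stimulated and antigen presentation genes were called lower. Of 41 on the array 37 were tested, 13 called lower (8 with the replicate block), against 8.83% of all genes, none higher and 24 not called, with a median of -0.94 and negative differences in 36 of 37. At an unadjusted limma p under 0.05 the counts were 17 lower and 0 higher. H2-K1, a class I heavy chain, averaged 11.09 ± 0.08 in quiescent cells and read 9.97, 9.65 and 10.27 after ligation, without overlap, and fell by 1.12 ± 0.16 (adjusted p = 0.000225), and H2-D1 read 11.69, 11.70, 11.86, 12.0 and 12.09 in quiescent cells and 10.58, 10.33 and 11.24 after ligation and fell by 1.15 ± 0.20. The immunoproteasome subunits Psmb8 and Psmb9 were called lower (-2.16 ± 0.46 and -2.11 ± 0.43) and the peptide transporter Tap2 fell by 1.90 ± 0.39. The guanylate-binding protein Gbp6 read 6.03, 6.42, 6.70, 5.49 and 7.88 and then 4.0, 4.38 and 3.63 and fell by 2.50 ± 0.53. Virus-response genes such as Ifit1, Irf7 and Oas1a were not called (-1.44 ± 0.83, -0.99 ± 0.74 and -0.85 ± 0.59). The count was 6 without ligation replicate 1, ligation replicate 2 or quiescent replicate 5. Probe sets of class I genes can bind sequence shared by the family, so the genes of this family are uncertain as single genes.

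An interferon-stimulated response element was present in 3 of 10 windows of the called genes, B2m, Gbp3 and Ifitm2, against 3.46% of all genes. RefSeq gives 2 starts for Gbp3, and the window of the second held no match. The first is shown because it holds 2 overlapping matches, in capitals, that begin 45 and 39 bases before the start. This motif was also chosen after values were seen.
Gbp3, chr3:142559794-142560043, plus strand: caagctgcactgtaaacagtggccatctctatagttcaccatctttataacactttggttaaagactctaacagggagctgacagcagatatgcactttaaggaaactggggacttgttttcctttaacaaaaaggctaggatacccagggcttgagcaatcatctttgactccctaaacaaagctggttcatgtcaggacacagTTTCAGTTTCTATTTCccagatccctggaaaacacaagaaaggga
Gbp3 fell by 1.93 ± 0.56 (adjusted p = 0.0276), and its call was lost without ligation replicate 1 or 2 (both 0.108) or quiescent replicate 5 (0.0632).

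Among the stress and metabolic lists below that had called members, the called share ran from 13.9% of immediate early genes to 26.3% of glycolysis and hypoxia genes, against 16.9% of all genes. Of 30 tested glutathione and NRF2 target genes none was called higher and 6 lower (2 and 9 at an unadjusted p under 0.05), median -0.14. The 6 fell to 2 or 3 without any 1 of the 3 ligation arrays or without quiescent replicate 1 or 5. Among them was Gstp1, a glutathione transferase, which read 12.76, 12.60, 12.78, 12.80 and 12.73 in quiescent cells and 12.24, 12.25 and 12.30 after ligation, without overlap, and fell by 0.47 ± 0.08. Of 36 immediate early genes 5 were called lower and none higher (9 and 3 at an unadjusted p under 0.05), median -0.73, among them the Krüppel-like factors Klf10, Klf2 and Klf4, with differences of -1.83 ± 0.26, -1.25 ± 0.18 and -1.19 ± 0.21. Of 32 tested heat shock and unfolded protein response genes 6 were called higher and 2 lower, median 0.11. The small heat shock protein Hspb1 rose by 3.09 ± 0.58, while the inducible chaperones Hspa1a and Hspa1b were called lower (-2.87 ± 0.81 and -2.07 ± 0.61), with arrays that overlapped. Neither was called without ligation replicate 1 (adjusted p = 0.107 and 0.116) or 2 (0.117 and 0.146), and the Hspa1b call was also lost without any of quiescent replicates 1, 2, 4 and 5 (0.0512 to 0.0571). Both belong to a pair of near-identical genes and are uncertain as single genes. The secretory pathway genes Creld2 and Manf, targets of the unfolded protein response, rose by 1.10 ± 0.20 and 0.85 ± 0.17, as did the chaperone Calr, by 0.75 ± 0.19. Of 19 tested genes of glycolysis and hypoxia 5 were called higher, median 0.23. Hk2, hexokinase 2, rose by 3.43 ± 0.51, and the lipase inhibitor Angptl4, which is not on this list, by 2.00 ± 0.38. The glycolytic enzyme genes Tpi1 and Pgam1 rose by less, 0.54 ± 0.11 and 0.46 ± 0.11, with ligation arrays of Pgam1 at 10.84, 10.86 and 10.87. Of 30 tested cholesterol and fatty acid genes 3 were called higher and 3 lower, with a median of -0.36 and negative differences in 20. The fatty acid genes Scd1, Fabp4 and Cd36 rose by 3.44 ± 0.47, 2.69 ± 0.52 and 3.97 ± 0.66. The sterol synthesis genes Sc5d and Lss fell by 0.75 ± 0.19 and 0.82 ± 0.26, and Mgll, a lipase of monoglycerides, fell by 1.29 ± 0.34. Without ligation replicate 2 the adjusted p was 0.106 for Mgll and 0.117 for Lss, and the Lss call was also lost without ligation replicate 1 or quiescent replicate 3, 4 or 5 (0.0576 to 0.216). None of 34 oxidative phosphorylation genes and none of 27 ribosomal protein genes was called by limma, with 5 and 1 at an unadjusted p under 0.05 and medians of 0.03 and -0.06.

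Markers of other cells were measured beside these results, as summed levels of each list. Portal fibroblast markers summed to log2 8.62 to 11.94 on the quiescent arrays and 11.68 to 12.50 after ligation, with 1 and 7 of 17 members averaging log2 5 or more. The ranges overlap. Of the 7 tested members 5 were called higher and did not overlap between the groups. Among all tested genes 8.03% were called higher and 22.6% did not overlap in either direction. Only 1 of the 7 averaged log2 5 in quiescent cells, and it was not called. Gpx3 and Thbs1 overlapped and were not called (1.68 ± 0.83 and 1.99 ± 0.78). Thbs1 was called without quiescent replicate 2 (adjusted p = 0.0368) or 4 (0.024) and with array weights (0.00989). Dpt, dermatopontin, read 6.75, 7.76 and 6.73 after ligation and 2.12, 2.82, 3.06, 2.23 and 2.80 in quiescent cells and rose by 4.47 ± 0.36, and Ncam1 rose by 3.48 ± 0.76. The defining marker Thy1 read 3.26, 4.31 and 2.99 and 1.16, 0.94, 1.33, 1.23 and 1.20, below the filter, and Entpd2 and Gli1 averaged 3.05 ± 0.33 and 1.49 ± 0.23 after ligation. Mesothelial markers summed to 7.98 to 9.41 and 10.27 to 11.20, with 2 and 5 of 19 members at log2 5, and 5 of 8 tested members were called higher. Without the filter 7 of 19 were. The keratins Krt18 and Krt8 read 7.82, 7.03 and 6.96 and 7.37, 6.84 and 5.90 after ligation and rose from background by 5.22 ± 0.42 and 4.81 ± 0.49, and podoplanin (Pdpn) rose by 2.62 ± 0.61, but Msln and Upk3b, the defining mesothelial genes, averaged 2.74 ± 0.43 and 1.33 ± 0.33. Cholangiocytes multiply after ligation and also carry these keratins. Their list summed to 7.04 to 7.63 and 7.98 to 8.45, and these sums did not overlap. Only 1 of 15 members was at log2 5 in both groups, the anion exchanger gene Slc4a2. The quiescent median was 7.47 for the sum and 7.07 for Slc4a2 alone. Of the 2 tested members of the list, Slc4a2 rose by 0.80 ± 0.25. That call was lost without any 1 ligation array (adjusted p from 0.0678 to 0.143) or quiescent replicate 1, 2 or 3 (0.0503 to 0.0757). The other, Krt19, was not called (0.81 ± 0.33, adjusted p = 0.113, but 0.0392 with no variance trend). Krt19, Krt7 and Epcam averaged 2.39 ± 0.59, 1.66 ± 0.07 and 2.41 ± 0.09 after ligation.

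Hepatocyte markers summed to 6.05 to 6.70 in quiescent cells and 8.48 to 9.75 after ligation, with 0 and 3 of 21 members at log2 5. Each of the 4 tested members was called higher, against 8.03% of all tested genes. None of the 4 averaged log2 5 in quiescent cells, so they passed the filter through groups in which they were high. Without the filter 5 of 21 were called higher, with a median of 0.65. Alb, albumin, read 9.0, 7.34 and 8.40 after ligation and 1.92, 1.84, 3.74, 2.50 and 3.75 before and rose by 5.50 ± 0.61, while Apoa1 and Cyp2e1 averaged 3.18 ± 0.63 and 1.38 ± 0.27. Macrophage markers summed to 7.52 to 8.34 and 8.73 to 10.54, with 1 and 4 of 30 members at log2 5. Of 4 tested members 3 were called higher, and without the filter 12 of 30 were, with a median of 0.63. The lysozyme genes Lyz1 and Lyz2 rose by 5.81 ± 0.44 and 3.90 ± 0.63 and the cathepsin gene Ctss by 4.36 ± 0.57, all from background, and ligation replicate 3 was the lowest of its group in each. Adgre1, which encodes the F4/80 protein of the depletion, was at 1.88 ± 0.16 and 1.87 ± 0.43, and C1qa and Clec4f, defining genes of Kupffer cells, averaged 1.94 ± 0.51 and 2.18 ± 0.61 after ligation. Ligation replicate 3 was also the lowest array for Mmp12, Ccl6 and Cd36, which rose beside these markers. Endothelial markers summed to 11.24 to 11.60 and 10.57 to 10.79, with 5 of 25 members at log2 5 in quiescent cells. Of 5 tested members 3 were called lower and none higher, against 8.83% lower of all tested genes. Without the filter 5 of 25 were called higher and 3 lower, with a median of 0.26, so the members did not share the direction of the sum. Pecam1, Kdr and Stab2 were near background in both groups. Neutrophil markers summed to 5.58 to 6.92 and 9.24 to 9.71, with Lcn2 the member called and S100a8 and S100a9 at 2.29 ± 0.51 and 1.57 ± 0.07 after ligation. Lymphocyte markers summed to 5.54 to 5.84 and 5.85 to 6.15, with 0 of 17 members at log2 5 in both groups and none tested. The part of any of these cells in the changes above was not tested.

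**Figure D4:**
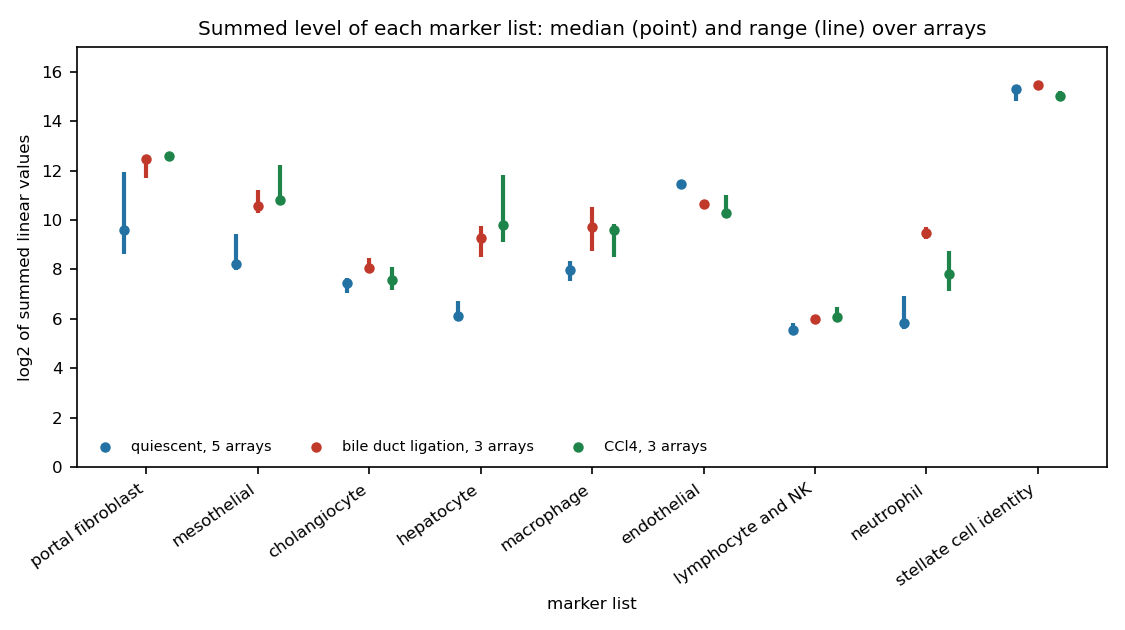
Summed level (log2) of each list of cell type markers in the quiescent, ligation and CCl4 groups, with the median as a point and the range over the arrays as a line. Hepatocyte, macrophage, mesothelial, neutrophil, cholangiocyte and lymphocyte sums lie higher after ligation than in quiescent cells without overlap, endothelial sums lie lower, and portal fibroblast and stellate cell sums overlap.

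Ligation was next compared directly with CCl4, which asks whether biliary and toxic injury leave stellate cells in different states. Few genes were called. Limma called 13 of 7823 genes (0.166%), 2 higher after ligation (0.0256%) and 11 lower (0.141%), and the median difference was 0.01. An unadjusted limma p under 0.05 was found for 1099 genes, a larger share than the 0.05 that chance alone would give. With array weights 77 genes were called higher and 85 lower. With 3 arrays per injury, genes that were not called may still differ, so the small number of calls does not show that the states are alike. Correlations across the tested genes were 0.937 to 0.969 between ligation and CCl4 arrays. Against the same 5 quiescent arrays CCl4 gave 1719 calls (22%), and since both comparisons share these arrays their own values are set side by side here. Col1a1 differed from quiescent cells by 4.26 after ligation and 2.90 after CCl4, Lox by 5.59 and 4.65, Acta2 by 1.51 and 1.38, Cdk1 by 4.53 and 4.37, and Gdf2 by -3.56 and -3.34. The direct difference of Col1a1 between the injuries was 1.35 ± 0.43 with an unadjusted 95% interval of 0.45 to 2.26 (adjusted p = 0.202), and that of Lox 0.94 ± 0.34 with 0.22 to 1.67 (0.239). Both intervals include a 2-fold difference. The quiescent genes had a median of -1.34 after ligation and -1.37 after CCl4. Interferon-stimulated genes had a median of -0.94 with 13 lower after ligation and -0.01 with 6 lower after CCl4, where 12.5% of all tested genes were called lower. In the direct test the interferon-stimulated genes had a median of -0.76, against 0.01 over all genes. None of the 13 genes called in that test is on their list.

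The called genes were mostly higher after CCl4. S100a4, a calcium-binding protein also called fibroblast-specific protein, read 6.01, 5.85 and 5.59 after ligation, 8.88, 8.57 and 9.82 after CCl4 and 2.28, 3.07, 3.21, 2.87 and 3.62 in quiescent cells. It rose in both injuries, and the ligation arrays lay between the other groups, with a direct difference of -3.27 ± 0.36 (adjusted p = 0.000426). Baiap2l1, an actin-bundling adaptor of epithelia, read 4.55, 5.16 and 4.15 and 7.83, 8.11 and 9.01 (-3.69 ± 0.38, adjusted p = 0.00025), and the phospholipid scramblase Plscr2 3.70, 3.79 and 3.33 and 7.12, 6.16 and 6.45 (-2.97 ± 0.31, adjusted p = 0.00025). In these 3 genes no array of one injury lay within the range of the other. For Col4a5 and the secreted protease Htra1 the differences between ligation and CCl4 were -1.91 ± 0.30 and -2.17 ± 0.34. Bnc1, a mesothelial transcription factor, read 1.72, 2.28 and 1.94 and 4.46, 5.22 and 7.04 (-3.59 ± 0.51), and the fetal liver gene Afp 3.46, 3.17 and 2.45 and 6.67, 6.89 and 8.98 (-4.49 ± 0.69). The Afp call was lost without ligation replicate 3 (adjusted p = 0.0674) or CCl4 replicate 3 (0.0562). The mesothelial list, with Bnc1 in it, summed to 10.69 to 12.22 after CCl4 and the hepatocyte list to 9.12 to 11.83, against 10.27 to 11.20 and 8.48 to 9.75 after ligation, and their part in these differences was not tested. Sema3a, a repulsive guidance molecule, was the gene with opposite changes, -1.16 after ligation and 1.29 after CCl4 against quiescent cells (-2.45 ± 0.36, adjusted p = 0.00964). Its decrease after ligation was not called without ligation replicate 2 (-1.14, adjusted p = 0.0732) or 3 (-0.86, 0.13).

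The remaining calls were those of Rnd1 (-2.30 ± 0.41), the adhesion gene Mpzl2 (-2.27 ± 0.40) and the cGMP-dependent kinase Prkg2 (-2.99 ± 0.54), all lower after ligation, and of Tmem119 and Adamtsl5, both higher. Tmem119 read 4.64, 4.83 and 4.50 after ligation, 2.87, 2.62 and 3.08 after CCl4 and 1.98, 1.62, 2.33, 1.59 and 1.71 in quiescent cells (1.80 ± 0.34, adjusted p = 0.043). Adamtsl5, a microfibril-binding protein, read 5.29, 6.11 and 6.11, 4.36, 4.55 and 4.43 and 6.07, 6.50, 6.24, 6.25 and 6.88 (1.39 ± 0.25, adjusted p = 0.0348), with the CCl4 arrays below both other groups. Neither call outlasted the loss of single arrays, with adjusted p from 0.0918 to 0.179 for Tmem119 in 6 of 6 such fits over the injury arrays and 0.096 to 0.179 for Adamtsl5 in 5 of 6. The Prkg2 call was lost in 4 of 6 (0.0936 to 0.202). Over all settings the number of calls ranged from 0 to 77 higher and from 4 to 85 lower.

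**Figure D5:**
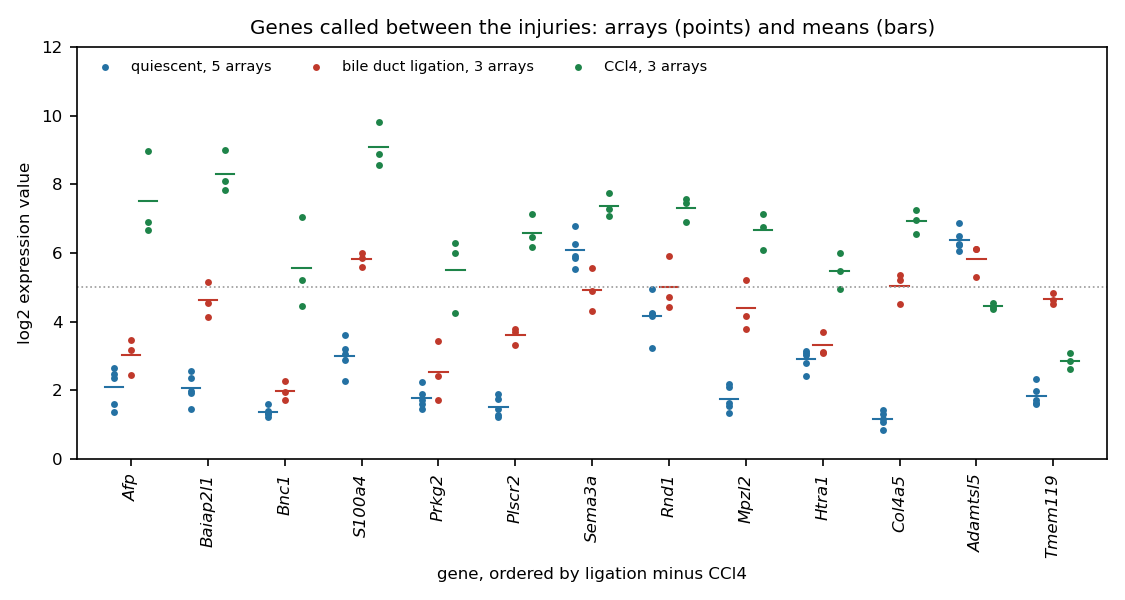
Log2 expression on each quiescent, ligation and CCl4 array (points) with group means (bars) of the 13 genes called between ligation and CCl4. In 11 genes the CCl4 arrays lie above the ligation arrays, and in Tmem119 and Adamtsl5 below them.

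Ligation and 5 days of culture left the cells much further apart. Limma called 3566 genes (45.6%), 1849 higher after ligation (23.6%) and 1717 lower (21.9%), where culture against quiescent cells gave 3291 (42.1%). Time on plastic, serum and injury differ together in this comparison and cannot be told apart. Col1a1 differed from quiescent cells by 4.26 after ligation and 1.13 in culture, and was 3.13 ± 0.43 higher after ligation in the direct test (adjusted p = 4.91e-05). For Lox, which was low in quiescent cells, the values were 5.59 and 5.66. Timp1 differed by 2.63 after ligation and -1.03 in culture, a direct difference of 3.67 ± 0.70 (adjusted p = 0.000734), and Fbln2 by 5.82 and -0.18 (adjusted p of the direct difference = 4.86e-07). Of the 32 tested genes of the quiescent state, 10 were called higher and 9 lower in culture against quiescent cells, where ligation gave none higher and 17 lower. Their median against quiescent cells was -1.34 after ligation and 0.29 in culture. In the direct test 22 were lower after ligation than in culture and 2 higher, and the direct differences were -4.60 ± 0.45 for Gdf2 and -2.13 ± 0.30 for Bmp5 (adjusted p = 3.57e-06 and 6.44e-05). Of 22 tested replication genes 19 were called higher after ligation than in culture, with medians against quiescent cells of 0.91 after ligation and -0.52 in culture, where 2 were called higher and 9 lower. Mcm5 was 2.53 ± 0.30 higher after ligation (adjusted p = 1.5e-05), whereas Cdk1 differed from quiescent cells by 4.53 and 3.48. Interferon-stimulated genes had a median of -0.94 after ligation and 0.72 in culture, where 11 of the 37 tested were called higher against 18.5% of all genes.

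The 3 ligation arrays differed among themselves in a small set of genes. The median SD among them was 0.202 over the tested genes, against 0.286 among the quiescent arrays, but 106 genes had an SD above 1, 55 of them called. Ligation replicate 2 had the highest value of Grem1 (5.50, 8.56 and 3.82) and of the proteoglycan Fmod (3.49, 6.22 and 3.23), with Fmod called higher by 2.46 ± 0.56, and also of Sdc1 (7.74, 10.25 and 7.99) and Scd1 (6.12, 8.76 and 7.10). The same array had the lowest value of the 7 cell cycle genes named above and of Bco1, the carotenoid oxygenase (9.40, 6.86 and 8.35), which fell by 1.55 ± 0.41 and was not called without that array (-0.88, adjusted p = 0.0966). The myeloid genes Ctss (7.65, 8.38 and 6.37) and Lyz2 (6.42, 7.22 and 4.09) were lowest in replicate 3. In Acta2, Lox and Fn1, in contrast, the 3 arrays lay within 1 log2 unit of each other.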

How the data were processed

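RNA was hybridised to Affymetrix mouse arrays of 45101 probe sets. The authors deposited log2 expression values computed with GCRMA, per the submitters' processing notes, with array medians of 2.00 to 2.06. No genome build and no GCRMA version is given in those notes.

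A platform annotation table gave 1 symbol to 34945 probe sets, and each of 18193 genes was represented by its brightest probe set over all 16 arrays. Genes with at least log2 5 on at least 2 arrays were tested (7823). R 4.3.3 and limma 3.58.1 fitted 5 group means, with eBayes trend and Benjamini-Hochberg adjustment over these genes. The call threshold was 0.05. The fit was tested on simulated data. Alternatives were other filters, the mean of probe sets, median centring, array weights, no trend, a replicate block, only the compared groups, and each array left out.

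Named genes were the 15 largest increases and decreases among called genes without overlap, the 5 smallest adjusted p, up to 4 called members of each list, a set of stellate cell genes and the genes called against CCl4. Other genes were chosen after their values were seen. Lists and comparison were chosen with earlier results of these data known. Promoters came from RefSeq, build GRCm38.p6. The number of arrays limits the precision.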

Additional observations from a re-analysis of the deposited data

Results flagged for a closer look

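Among the 263 genes checked, 18 had 1 quiescent array far from the other 4, by a test that chance meets in about 1 of 20 groups. Quiescent replicate 4 was that array in 10 of them. It was low in Gdf2 (8.53), Efemp1 (8.03), Fgfr2 (8.95), Plxnc1 (5.34), Esr1 (5.43), Reln (11.52), Col14a1 (9.10) and Id3 (9.52), and high in Mmp13 (8.16) and Pdpn (8.93). In these genes except Col14a1 it lay nearer to the ligation arrays than the other quiescent arrays did. Quiescent replicate 3 stood apart in Vcan (2.74), Hspa1b (9.34), Slc4a2 (6.43) and the hepatocyte gene Cyp2e1 (1.80, near background). Quiescent replicate 1 stood apart in Nfe2l2 (10.32). Quiescent replicate 2 stood apart in Mgll (8.14) and, near background, in Igf1 (1.73) and Epcam (1.70).

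The direct limma test separated ligation from CCl4 in 13 genes. Ligation minus CCl4 was 1.80 for Tmem119 and 1.39 for Adamtsl5. It was negative for Afp (-4.49), Baiap2l1 (-3.69), Bnc1 (-3.59), S100a4 (-3.27), Prkg2 (-2.99), Plscr2 (-2.97), Sema3a (-2.45), Rnd1 (-2.30), Mpzl2 (-2.27), Htra1 (-2.17) and Col4a5 (-1.91).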

How the results depend on the processing

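Of 204 named genes called between ligation and quiescent cells, 155 were called under every alternative run. Leaving out single arrays gave 414 to 640 genes called higher and 370 to 793 called lower. The calls against CCl4 moved most, from 2 higher and 11 lower to 7 and 36 without a filter, 0 and 4 with a filter at log2 7, 77 and 85 with array weights and 10 and 30 with only the compared groups. The higher calls were 4 with the mean of probe sets. Leaving out single arrays gave 0 to 1 higher and 4 to 12 lower. Differences of genes that were not called changed sign. Lrat ranged from -2.34 to 0.043 over single arrays left out. Tgfb1 was 0.042 with array weights and 0.11 with the replicate block, and ranged from -0.38 to 0.076 over single arrays left out. Ccl2 was 0.038 with centred arrays, 0.022 with array weights and 0.15 with the block, and ranged from -0.20 to 0.21 over single arrays left out. The labels do not say whether replicate numbers pair the samples. Correlations of same-numbered deviations were -0.10, 0.10 and -0.03, and those of differently numbered arrays ran from -0.19 to 0.21. With so few arrays these values cannot decide it. With the replicate block 520 genes were called higher and 564 lower. With the block, 8 interferon-stimulated genes and 2 YAP and TAZ targets were called. The cause of these shifts was not tested. Values near background limit the folds that start there.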
